A study of Mus musculus with 2 samples.

Results

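The nuclear genes of oxidative phosphorylation encode most subunits of the respiratory chain and the ATP synthase. They were taken here as the gene symbols beginning with Nduf (complex I and its assembly factors), Uqcr (complex III), Cox4, Cox5, Cox6, Cox7 or Cox8 (complex IV) and Atp5 (complex V), without pseudogenes. Of 89 such symbols, 88 had at least 30 UMIs (unique transcript tags) in the called cells of both libraries together, out of 32285 genes listed and 21534 that reached that minimum. Cox8b, a muscle isoform, did not reach it. The 88 members comprised 8 assembly factors of complex I, 7 core and 29 supernumerary subunits of complex I, 8 subunits of complex III, 19 of complex IV (with Ndufa4 and Ndufa4l2, which belong to it in spite of their prefix) and 17 of complex V. The rule used no level in any cell class and no difference between libraries.

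Complex I oxidises NADH, complex III passes electrons from ubiquinol to cytochrome c, and complex IV passes them to oxygen. The protons that these complexes pump drive the ATP synthase, complex V. The mitochondrial genome encodes 13 further subunits (the mt- genes), so each complex except complex II is built from transcripts of both genomes. In the testis, Sertoli cells are known for glycolysis that supplies lactate to germ cells. Leydig cells carry out part of steroid synthesis in mitochondria rich in cristae. Germ cells switch on isoforms of several respiratory subunits that other tissues lack.

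Whole testis of C57BL/6 mice aged 13 days was profiled as single cells, with 1 library from a control and 1 from a conditional knockout of Psma7, a subunit of the constitutive 20S proteasome. In the control 1 copy was floxed and 1 wild type (Psma7 F/+), and its label names no Cre. In the knockout 1 copy was floxed and 1 deleted, with a Cre that acts in germ cells (Psma7 F/-;Stra8-Cre KI/+), so its somatic cells also hold a deleted copy. The series title concerns the need for that proteasome in spermatogonia, the cells that renew and supply spermatogenesis. The number of mice behind a library is not given in the sources used here. With 1 library per genotype no difference has a replicate check and none was tested, and every interval covers counting error only.

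The libraries held 146528736 and 112746953 UMIs (control, then knockout, as in every pair of values between libraries), with median depths of 8372.5 and 5482 UMIs per called cell. After the removal of doublets 10737 and 10589 cells remained, and 29 barcodes were called in both libraries. Clusters were named from marker genes, and a name states resemblance by transcripts. There were 518 and 290 undifferentiated spermatogonia, 2218 and 110 differentiating spermatogonia, 1045 and 0 early meiotic germ cells, and 3846 and 6538 Sertoli cells. The somatic classes beside these were Leydig cells (300 and 307), peritubular myoid cells (853 and 782), interstitial stromal cells (1677 and 2158), endothelial cells (87 and 63), macrophages (121 and 130), pericytes (42 and 19) and rete or mesothelial epithelium (16 and 14). Psma7 stood at 245 and 94.5 CPM (UMIs of the gene per 1000000 UMIs of the class) in undifferentiated spermatogonia and at 237 and 86.6 CPM in Sertoli cells, lower in the knockout library in each class. Its 3′ tag may lie outside the deleted exons, so it checks the label only in part. Total UMIs of a class were the denominator of every level, so a level is a share of the RNA captured and not an amount per cell.

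As pooled classes, Leydig cells gave the members the largest share of their RNA and Sertoli cells the smallest. In the control library the 88 members summed to 1.96% of the UMIs of Leydig cells (95% interval 1.94 to 1.97). They summed to 1.63% in differentiating spermatogonia, 1.47% in macrophages, 1.39% in early meiotic cells and 1.38% in endothelial cells. Stromal cells followed with 1.24%, peritubular myoid cells with 1.21%, undifferentiated spermatogonia with 1.17% (1.16 to 1.18) and Sertoli cells with 0.793% (0.790 to 0.796). The knockout library had 1.96% in Leydig cells, 1.80% in differentiating and 1.27% in undifferentiated spermatogonia, and 0.850% in Sertoli cells. Leydig cells stood first and Sertoli cells last in both libraries. The Sertoli sum pools clusters with unlike shares. Cluster 14 (333 and 323 cells) had 1.27% and 1.38%, above undifferentiated spermatogonia of the same library. Cluster 19 (139 and 161 cells of few UMIs) had 2.71% and 2.80%. The other Sertoli clusters with at least 50 cells in both libraries had 0.552% to 0.845%. Early meiotic and endothelial cells, neighbours in the control's order, had overlapping intervals (1.39 to 1.40 and 1.36 to 1.40).

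**Figure D1:**
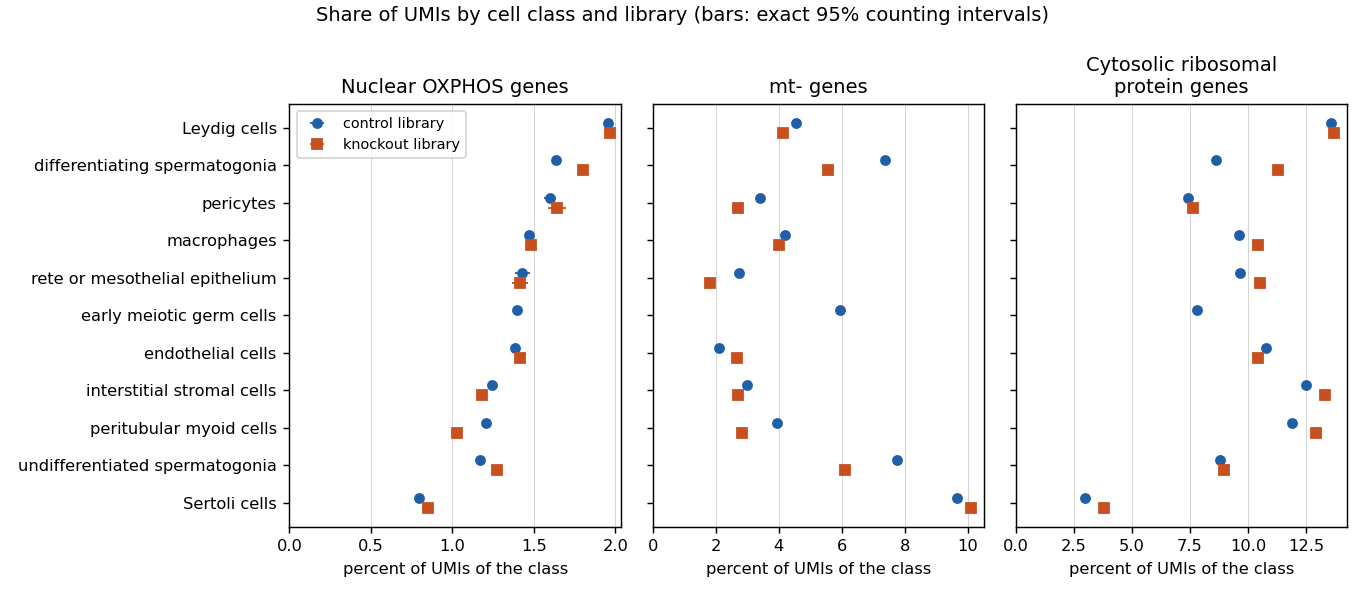
Each point is the percent of a class's UMIs that came from the nuclear OXPHOS members (left), the mt- genes (middle) or the cytosolic ribosomal protein genes (right), by class (rows) and library, with exact 95% counting intervals. Sertoli cells have the lowest share from members, 0.793% and 0.850%, and the highest from mt- genes, 9.67% and 10.1%.

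The mitochondrially encoded transcripts did not follow the nuclear ones across classes. Sertoli cells, lowest in the nuclear members as a pooled class, were highest in the mt- genes with 9.67% and 10.1% of UMIs. Their cluster 14 had 8.38% and 6.86%. Leydig cells, highest in the nuclear members, had 4.53% and 4.12%, and endothelial cells 2.11% and 2.68%. Sertoli cells thus held 12.2 and 11.9 mt- UMIs for each nuclear OXPHOS UMI, undifferentiated spermatogonia 6.63 and 4.80, and Leydig cells 2.32 and 2.10. Cells with over 20% mt- UMIs had been left out, which cuts the mt- share from above. The barcodes of 10 to 100 UMIs, which sample free RNA, held 1.92% and 1.61% from the members and 6.27% and 6.46% from mt- genes.

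The order of the sum was that of some members and not of others. In the control library 37 of the 88 members (42.0%) had their highest level in Leydig cells. So did 6.83% of all 21401 genes with at least 30 UMIs. Differentiating spermatogonia were highest for 21 members (23.9%, against 13.9% of all genes) and early meiotic cells for 17 (19.3%, against 13.7%). The lowest level was in Sertoli cells for 41 members (46.6%, against 10.7% of all genes) and in undifferentiated spermatogonia for 16 (18.2%, against 7.31%). Atp5b, the catalytic beta subunit of the ATP synthase and the most abundant member of complex V, stood at 768 CPM in Leydig cells, 473 in differentiating spermatogonia, 303 in undifferentiated spermatogonia and 250 in Sertoli cells. Cox4i1, the ubiquitous regulatory subunit of complex IV, ran from 994 CPM in Leydig cells to 250 CPM in Sertoli cells. Uqcrh, the hinge protein of complex III, ran from 433 CPM in Leydig cells to 150 CPM in Sertoli cells. Cox5a, another nuclear subunit of complex IV, departed from this order with 795 CPM in early meiotic cells, 698 in macrophages and 204 in stromal cells.

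Set against undifferentiated spermatogonia gene by gene, Leydig cells were higher for most members, while in Sertoli cells the members were lower to about the extent that all genes were. In the control the median log2 ratio of Leydig cells over undifferentiated spermatogonia was 0.66 over 85 members with at least 30 UMIs, against -0.70 over all genes. Over 1.5-fold higher were 47 members and over 1.5-fold lower 6, where 23.6% and 53.1% of all genes were. In the knockout library the median was 0.59, with 43 of 85 members higher and 7 lower, where 24.2% and 52.1% of all genes were. For Sertoli cells the control's median was -0.51 against -0.47 over all genes. Of 86 members 7 were higher and 40 lower, shares close to the 24.7% and 46.6% of all genes only on the lower side. The knockout's median was -0.49 against -0.46, with 7 of 87 members higher and 35 lower, where 24.7% and 46.2% of all genes were.

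A few members stood well above their median in 1 or 2 classes. Ndufaf2, a chaperone of late complex I assembly, stood at 166 CPM in undifferentiated and 152 CPM in differentiating spermatogonia of the control, against 44.8 in Sertoli and 48.5 in Leydig cells. Ndufaf5, which modifies a complex I subunit during assembly, stood at 38.0 CPM in undifferentiated spermatogonia against a median of 14.1 over the other classes. Ndufaf8, another complex I assembly factor, reached 132 CPM in differentiating spermatogonia against a median of 38.6 CPM over the other classes. Ndufa8 reached 292 CPM in endothelial cells against a median of 108, and Ndufb7, a supernumerary subunit like it, 174 CPM in macrophages against a median of 98.3. In Leydig cells Atp5g3, a c-ring subunit of the ATP synthase, stood at 501 CPM and Uqcr10, a small subunit of complex III, at 266 CPM, against medians of 197 and 106 CPM. These genes were chosen as the 3 furthest above the other classes in each class, so their levels are a description.

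Between undifferentiated and differentiating spermatogonia the members were higher in the later stage in both libraries. The median log2 ratio was 0.51 in the control, where 36 of 87 members were over 1.5-fold higher and 3 lower, against a median of -0.08 with 16.7% and 28.0% over all genes. It was 0.52 in the knockout, with 30 of 84 members higher and 0 lower, against a median of -0.02 with 13.9% and 18.6% over all genes. Higher in the later stage in both libraries were 67 of 84 members, as were 32.7% of all genes. The later stage held a cluster of cells with few UMIs (227 and 57 cells, median 1848 and 1693 UMIs) in which the members made up 3.41% and 3.35% of UMIs. Without clusters of this kind the median was 0.48 in the control, with 32 members higher and 3 lower, and 0.32 in the knockout, with 14 higher and 0 lower. The share of all genes is not given for that setting, so these counts have no background.

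By role, complex V had the highest median in the control (0.63, 10 of 17 over 1.5-fold higher) and the assembly factors the lowest (0.34, 2 of 8). The medians of the other roles were 0.55 for complex III, 0.49 for core and 0.49 for supernumerary subunits of complex I and 0.45 for complex IV. Atp5f1, the b subunit of the stator of the ATP synthase, stood at 139 CPM in undifferentiated and 392 CPM in differentiating spermatogonia of the control, and at 160 and 217 CPM in the knockout. Its log2 ratio was 1.49 (95% interval 1.41 to 1.59) in the control and 0.44 (0.24 to 0.64) in the knockout. Ndufv2, a core subunit of the NADH-binding module, went from 65.7 to 168 CPM in the control, a log2 ratio of 1.35, and Ndufa12, a supernumerary subunit, from 29.1 to 86.1 CPM, a ratio of 1.56. Ndufaf3, an assembly factor, had the highest log2 ratio (1.74) from low levels of 3.48 and 11.8 CPM.

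The members lower in the later stage included X-linked ones. Ndufb11, an X-linked supernumerary subunit, stood at 129 CPM in undifferentiated and 52.4 CPM in differentiating spermatogonia of the control, where its log2 ratio was -1.29 (-1.41 to -1.18). The knockout had 129 and 120 CPM, with a ratio of -0.10 (-0.36 to 0.15), and without clusters of few UMIs 129 and 93.9 CPM, with a ratio of -0.45 (-0.76 to -0.17). Cox7b, X-linked as well, went from 76.0 to 51.3 CPM in the control (log2 ratio -0.57) and from 88.4 to 73.2 CPM in the knockout (-0.27, -0.60 to 0.05). Without clusters of few UMIs its ratio was -0.58 in the control and -0.57 (-0.96 to -0.21) in the knockout. Ndufa1, the third X-linked member, ran the other way, from 20.5 to 66.8 CPM in the control (1.70) and from 29.8 to 53.6 CPM in the knockout (0.85). Ndufv3, an autosomal flavoprotein subunit of complex I, went from 66.6 to 36.1 CPM in the control (-0.88). The knockout's differentiating class differed in its stage markers: 18 markers of undifferentiated spermatogonia summed to 269 and 484 CPM there, and 14 markers of early meiotic cells to 1652 and 905 CPM. The part of these differences in the members' ratios was not tested.

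Early meiotic cells, present only in the control, had members on both sides of the fold. Against differentiating spermatogonia 13 of 87 members were over 1.5-fold higher and 28 lower, where 15% and 52.0% of all genes were. The median log2 ratio was -0.28 against -0.65 over all genes, so relative to the median gene the members stood 0.37 higher. Ndufa1 reached 246 CPM (log2 ratio 1.88, 1.81 to 1.96), Ndufv2 329 CPM (0.97), Atp5f1 689 CPM (0.81), Uqcrc2, a core protein of complex III, 247 CPM (1.07) and Ndufaf1, a complex I chaperone, 48.0 CPM (1.13). Cox8a, the ubiquitous subunit VIII of complex IV, was lowest in ratio, 261 CPM before and 44.5 CPM after (-2.55, -2.66 to -2.44). Cox7b stood at 12.4 CPM (-2.04), Ndufv3 at 13.1 CPM (-1.47), Ndufa11 at 106 CPM (-1.43) and Ndufa13 at 105 CPM (-1.40), the last 2 supernumerary subunits of complex I. Core subunits of complex I had a median of 0.49, complex V one of -0.42 and complex IV one of -0.60.

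**Figure D2:**
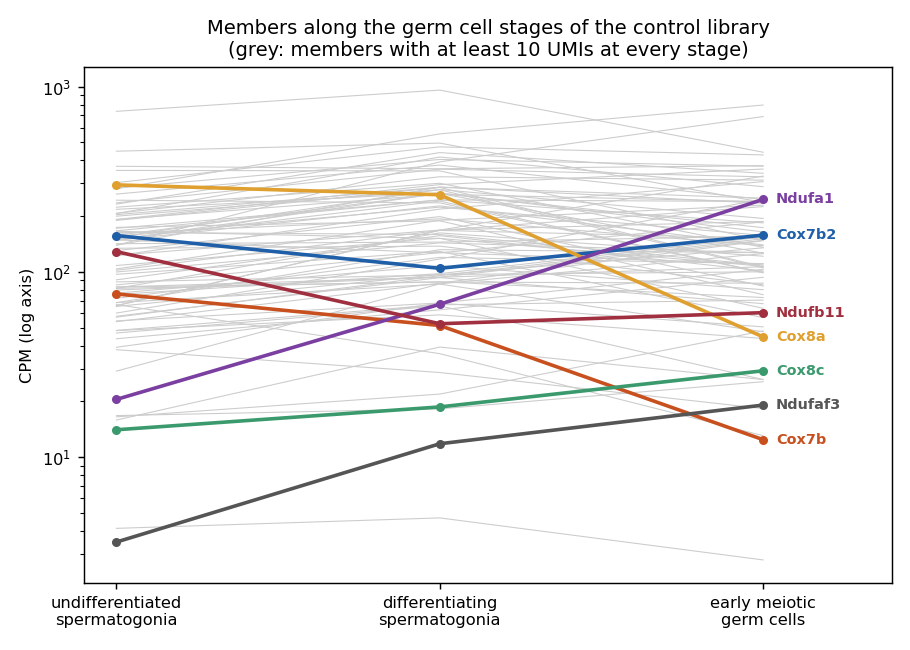
Levels in CPM (log axis) of members with at least 10 UMIs at every stage (grey) and of 7 named members (coloured) in undifferentiated, differentiating and early meiotic germ cells of the control library. From the first to the last stage Ndufa1 stands at 20.5 and 246 and Cox8c at 14.0 and 29.2, while Cox7b stands at 76.0 and 12.4 and Cox8a at 295 and 44.5.

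Other lists of metabolic genes differed along the same stages. Mitochondrial ribosomal proteins had a median log2 ratio of 0.40 between undifferentiated and differentiating spermatogonia of the control (26 of 78 over 1.5-fold higher, 2 lower), and the tricarboxylic acid cycle 0.33 (4 of 17 higher, 1 lower). The mt- genes had -0.11 with 0 of 13 past 1.5-fold in either direction. Glycolysis had -0.43, with 1 of 15 genes higher and 7 lower, Pfkp, a phosphofructokinase, lowest at -1.80. Of all genes 16.7% were over 1.5-fold higher and 28.0% lower in this comparison. In early meiotic cells the glycolysis median was -1.75 (1 of 15 higher, 10 lower), with Aldoc, an aldolase, at -3.26. Against differentiating spermatogonia, 15% of all genes were over 1.5-fold higher and 52.0% lower in early meiotic cells. Complex II, whose 4 subunits also belong to the tricarboxylic acid cycle, had a median of 0.46 there. The medians over all genes for these comparisons are those given above with the members.

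Several complex IV subunits exist as a common form and a tissue-restricted form, and germ and somatic cells differed clearly in the pair Cox7b and Cox7b2. The 150 bases before the start of each gene of this pair, 5′ to 3′ on the gene's strand, from RefSeq promoter entries on GRCm38.p6, are shown because the leading form differed between germ and somatic cells. The Cox7b window is chrX:106015550-106015699 (plus strand) and the Cox7b2 window chr5:71548206-71548355 (minus strand). Neither holds a match to the motifs searched below, so no letter is in capitals.
Cox7b: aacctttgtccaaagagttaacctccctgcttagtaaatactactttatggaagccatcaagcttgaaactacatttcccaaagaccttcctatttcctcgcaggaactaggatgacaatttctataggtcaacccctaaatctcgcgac
Cox7b2: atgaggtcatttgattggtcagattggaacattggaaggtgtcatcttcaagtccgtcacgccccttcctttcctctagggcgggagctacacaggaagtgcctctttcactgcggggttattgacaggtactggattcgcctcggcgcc

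GC content was 41.3% in the Cox7b window and 53.3% in the Cox7b2 window. Promoter entries were found for 72 of the 88 members. In 57 of their 77 entries the bases just after the start lay in an annotated GENCODE transcript of the gene, so the starts of the 2 annotations differ for some members. On either strand of the 150 bases, TGCGCA, the half-site of NRF1, a known regulator of respiratory genes, was present in 10 of 72 members (13.9%) and in 5.66% of 27018 genes with an entry. CCGGAAG, an ETS core of the kind GABPA binds, was present in 11 of 72 members (15.3%) and in 6.33% of genes. The letters of these motifs cannot overlap each other. A match is a description of the letters in this window and not a site.

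Cox7b2 was the leading complex IV isoform of germ cells. It stood at 157 and 178 CPM in undifferentiated spermatogonia, 104 and 127 CPM in differentiating spermatogonia, and 158 CPM in early meiotic cells of the control. Somatic classes with at least 50 cells had 2.39 to 8.99 CPM in the control and 0 to 1.32 CPM in the knockout, with 0 in endothelial cells, where 3 counts would be 3.29 CPM. Since 3′ libraries count about 1 tag per transcript, levels of 2 genes were compared without scaling to length. Cox7b2 made up 67.4% (65.2 to 69.5) and 66.9% (64.1 to 69.5) of Cox7b2 plus Cox7b in undifferentiated spermatogonia. Its share was 67.1% and 63.4% in differentiating spermatogonia and 92.7% (91.7 to 93.6) in early meiotic cells, where Cox7b was low. Free RNA held Cox7b2 at 73.1 and 16.7 CPM, and 8 germ cell markers summed to 127 and 13.9 CPM in Sertoli cells. The part of free RNA in the somatic Cox7b2 levels was not tested.

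Cox8c, the testis form of subunit VIII, stood at 14.0 and 18.2 CPM in undifferentiated spermatogonia, 18.6 and 29.7 CPM in differentiating spermatogonia and 29.2 CPM in early meiotic cells. Its share of Cox8c plus Cox8a was 4.55% and 4.92% in undifferentiated, 6.68% and 6.08% in differentiating and 39.6% (36.9 to 42.4) in early meiotic cells. Cox8a itself stood at 261 and then 44.5 CPM in the last 2 stages of the control. Testis forms of other partners of the chain, outside the 88 members, differed in direction along the stages. Cyct, the testis cytochrome c, stood at 89.4 and 81.5 CPM in undifferentiated spermatogonia, at 57.0 and 74.7 CPM in differentiating spermatogonia and at 27.8 CPM in early meiotic cells. Its counterpart Cycs stood at 161 and 176 CPM, then 251 and 265 CPM, then 278 CPM. Slc25a31, the germ cell ADP/ATP carrier, stood at 189 and 151 CPM, then 241 and 196 CPM, then 544 CPM, while its counterpart Slc25a4 stood at 34.6 and 61.5 CPM, then 17.0 and 41.3 CPM, then 7.07 CPM. Free RNA held Cox8c at 19.2 and 4.76 CPM, Cyct at 39.3 and 6.54 CPM and Slc25a31 at 260 and 20.2 CPM. The part of free RNA in the levels of these genes was not tested.

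Vessels had isoforms of their own. Cox4i2, a hypoxia-linked form of subunit IV, stood at 113 and 94.4 CPM in endothelial cells and 339 and 451 CPM in pericytes, and at 0.277 to 6.88 CPM in every other class with at least 50 cells. Ndufa4l2, a paralogue of Ndufa4, stood at 149 and 98.8 CPM in endothelial cells and 389 and 602 CPM in pericytes. In pericytes it made up 57.8% (51.6 to 63.7) and 70.1% (62.9 to 76.5) of Ndufa4l2 plus Ndufa4. The pericyte cluster held only 42 and 19 cells. The endothelial cluster also had at least 3 pericyte markers 1.5-fold above the other cells. The part of pericyte RNA in its levels was not tested.

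**Figure D3:**
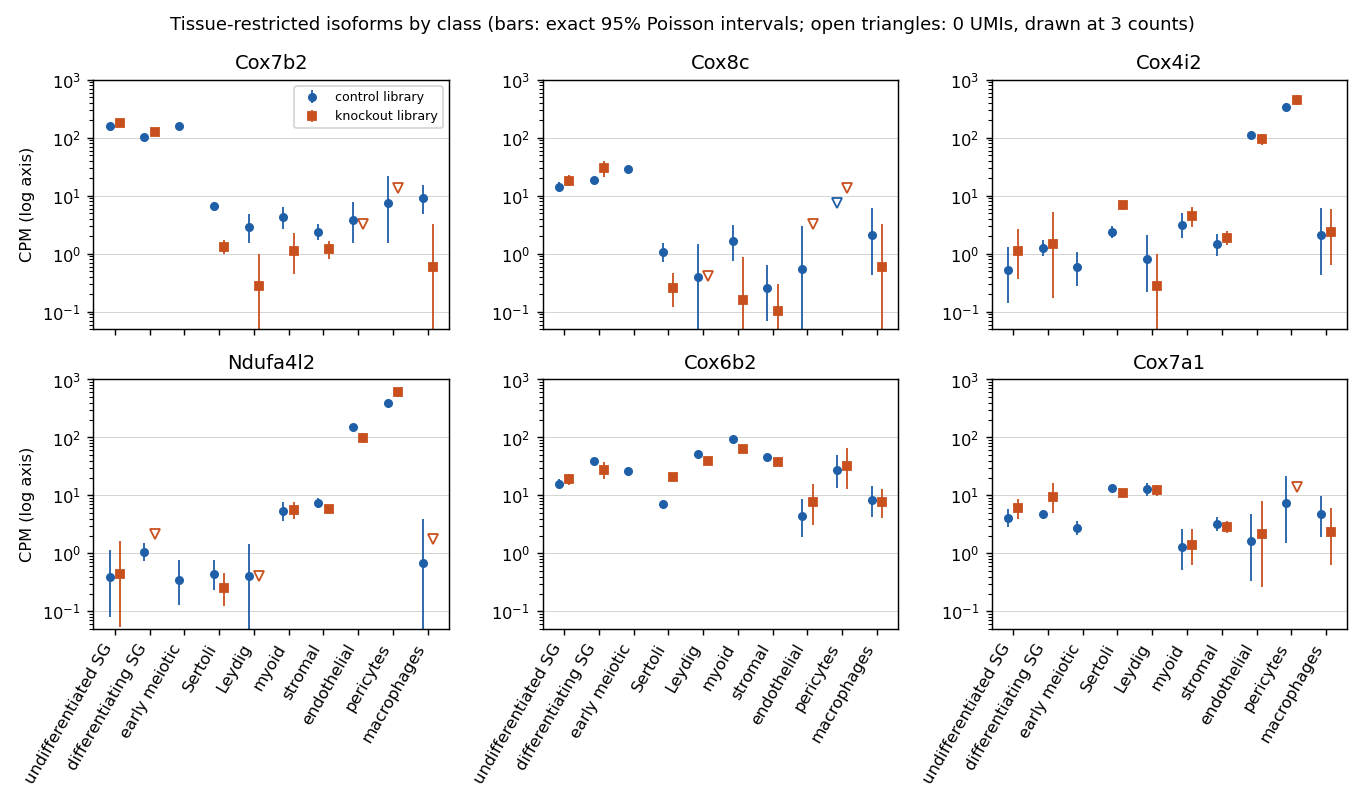
Levels in CPM (log axis) of 6 tissue-restricted isoforms by class and library, with exact 95% Poisson intervals; open triangles are counts of 0 drawn at the limit of 3 counts. Cox7b2 and Cox8c stand highest in germ cells, Cox4i2 and Ndufa4l2 in endothelial cells and pericytes, and Cox6b2 in peritubular myoid cells at 95.7 and 62.9.

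Cox6b2, described as a testis form of subunit VIb, was not restricted to germ cells. It was highest in peritubular myoid cells (95.7 and 62.9 CPM, 38.6% and 30.9% of Cox6b2 plus Cox6b1) among classes with at least 50 cells. Leydig cells had 51.0 and 39.7 CPM, stromal cells 45.3 and 38.0, differentiating spermatogonia 39.3 and 27.5, and undifferentiated spermatogonia 15.8 and 18.8. Free RNA held 31.1 and 36.3 CPM, while endothelial cells had 4.38 and 7.68 CPM. The part of free RNA in the levels by class was not tested. Cox7a1, the heart and muscle form of subunit VIIa, reached at most 13.3 CPM, in Sertoli cells of the control, and Cox6a2, a muscle form of subunit VIa, at most 9.35 CPM, in macrophages of the knockout.

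Between the libraries, undifferentiated spermatogonia of the knockout had slightly higher levels of most members and lower levels of most mt- genes. Of 85 members with at least 30 UMIs (Cox4i2, Cox6a2 and Ndufa4l2 fell below), 66 had a ratio above 0, or 77.6%, against 55.2% of all 15000 genes measured. The median log2 ratio was 0.12 against 0.05 over all genes. Only 2 members were over 1.5-fold higher and 1 lower, fewer than the 14.5% and 8.60% of all genes. All genes here were not matched to the members in level. Their summed share was 1.17% and 1.27%, and the middle cell had 1.10% and 1.13% with quartiles of 0.775 to 1.42% and 0.794 to 1.5%, which overlap nearly throughout. This class was a single cluster, with median depths of 13274.5 and 13180 UMIs.

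The members furthest from 0, among those at 20 CPM or more, included subunits of complexes I, III, IV and V. Atp5k, the e subunit that helps join ATP synthase dimers, stood at 81.4 and 143 CPM (log2 ratio 0.82, 0.66 to 0.98). Atp5h, the d subunit of its stator, stood at 139 and 232 CPM (0.74, 0.61 to 0.86). Uqcrq, a small subunit of complex III, stood at 90.5 and 129 CPM (0.51), and Ndufa1 at 20.5 and 29.8 CPM (0.54, 0.20 to 0.89). Between 0.33 and 0.42 lay the complex I subunits Ndufb4 (0.42), Ndufb3 (0.39), Ndufs3 (0.38), Ndufc1 (0.35) and Ndufv3 (0.34), and Cox6b1 (0.34). On the lower side Ndufaf5 stood apart at 38.0 and 20.2 CPM (-0.91, -1.27 to -0.57).

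The remaining low members were nearer to 0. Ndufb10, a complex I subunit, stood at 97.0 and 81.0 CPM (-0.26), Uqcrc2 at 59.9 and 50.7 CPM (-0.24) and Atp5o, the stator protein OSCP, at 223 and 191 CPM (-0.22). Ndufb9, the most abundant supernumerary subunit, stood at 448 and 402 CPM (-0.15). By role the medians were 0.20 for complex IV, 0.16 for complex V, 0.14 for complex I core subunits, 0.12 for complex III, 0.10 for supernumerary subunits and 0.08 for assembly factors, a narrow range.

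The mt- genes of the same cells went the other way. Their share was 7.76% in the control and 6.11% in the knockout, and 9 of 13 had a ratio below 0 (median -0.21) with 0 past 1.5-fold. Furthest below 0 lay mt-Co3 at 19694 and 13750 CPM (-0.52) and mt-Nd1 at 5093 and 3598 CPM (-0.50), while the scarce mt-Atp8 (28.2 and 38.4 CPM, 0.45) and mt-Nd4l (0.26) stood above it. Glycolysis had a median of 0.30, with 2 of 15 genes over 1.5-fold higher and Ldhb, a lactate dehydrogenase, at 1.71. Over all genes 14.5% were past 1.5-fold higher and 8.60% lower. Complex II had -0.11, regulators of mitochondrial biogenesis 0.12, mitochondrial ribosomal proteins 0.06 and cytosolic ribosomal proteins 0.03. Slc25a4, the somatic ADP/ATP carrier, stood at 34.6 and 61.5 CPM (0.83). Beside these values, 15 Sertoli cell markers, all detected, summed to 285 and 529 CPM in this class, and their part in the ratios was not tested.

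**Figure D4:**
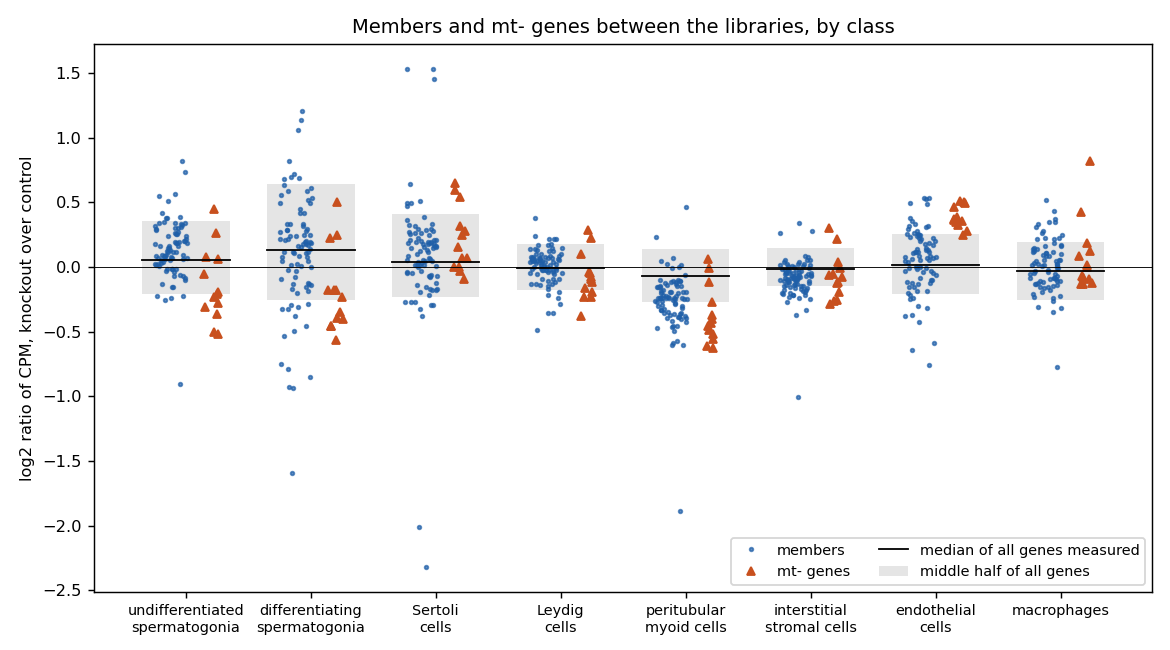
Log2 ratio of CPM, knockout over control, of each member (blue points) and each mt- gene (triangles) with at least 30 UMIs in a class; black lines are the median of all genes measured and grey bands their interquartile range. Members lie mostly above 0 in undifferentiated spermatogonia (median 0.12) and mostly below it in peritubular myoid cells (median -0.24).

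In differentiating spermatogonia the comparison rested on 110 knockout cells, 57 of them in the cluster of few UMIs and 48 in the cluster that held 770 control cells. The median of 87 members was 0.16 against 0.13 over all genes, with 12 over 1.5-fold higher and 6 lower, where 27.0% and 10.7% of all genes were. Without clusters of few UMIs the median was 0.03, with 6 higher and 7 lower, counts for which no share of all genes is given here. With each library clustered alone it was 0.98, with 67 higher and 2 lower. In that setting the knockout had no undifferentiated class, and the share of all genes was not computed, so these counts have no background. Highest were Ndufb11 (52.4 and 120 CPM, 1.20), Ndufv3 (36.1 and 79.0 CPM, 1.13), Cox8a (261 and 459 CPM, 0.82), Atp5g3 (159 and 262 CPM, 0.72) and Cox6b1 (189 and 305 CPM, 0.70). Lowest were Ndufa12 (86.1 and 44.9 CPM, -0.93), Atp5f1 (392 and 217 CPM, -0.85), Uqcrc2 (117 and 67.4 CPM, -0.79), Ndufb5 (168 and 99.3 CPM, -0.75) and Uqcrfs1, the Rieske protein of complex III (62.3 and 42.8 CPM, -0.53). Ndufb11, Ndufv3 and Cox8a are also members that were lower at later stages of the control, and Ndufa12, Atp5f1 and Uqcrc2 members that were higher. The comparisons share the control's differentiating cells. Glycolysis stood at 0.76 with 9 of 15 genes over 1.5-fold higher and 0 lower.

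Sertoli cells of the knockout had a higher summed share, 0.850% against 0.793%, but not within most of their clusters. Over 87 members the median was 0.11 against 0.03 over all genes. Over 1.5-fold higher were 4 members and lower 2, where 18.3% and 8.88% of all genes were. The 4 were Cox4i2 (1.53), Cox6a2 (1.45), Cox6b2 (1.53) and Atp5k (0.64), all but Atp5k tissue-restricted isoforms at low levels. Different clusters held most Sertoli cells in each library. In the control they were clusters 5, 10 and 11 with 1147, 912 and 856 cells, and in the knockout clusters 0, 3, 6 and 8 with 2418, 1153, 1062 and 937 cells. Of 7 Sertoli clusters with at least 50 cells in both libraries, the members' share was higher in the knockout in 2 and lower in 5. Cluster 14, with 333 and 323 cells, had 1.27% and 1.38% (log2 ratio 0.12, 0.11 to 0.14), and cluster 0, with 80 and 2418 cells, had 0.845% and 0.736% (-0.20, -0.25 to -0.15).

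**Figure D5:**
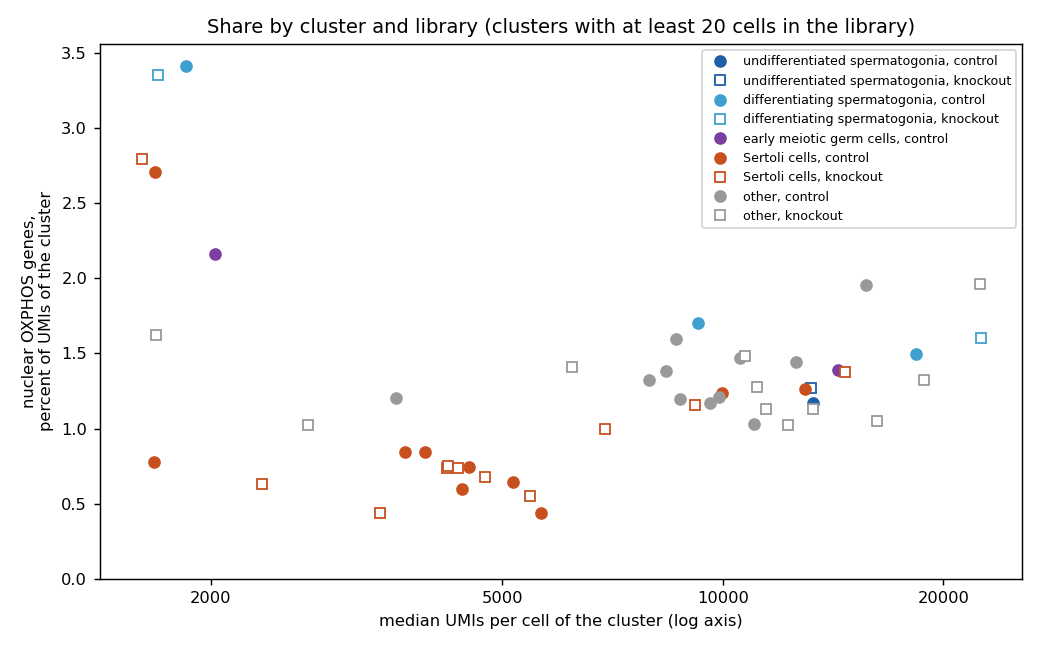
Percent of a cluster's UMIs from the members against the median UMIs per cell of the cluster (log axis), for clusters with at least 20 cells in the library; filled circles are control and open squares knockout. Clusters of few UMIs reach 3.41% and 3.35% in differentiating spermatogonia and 2.71% and 2.80% in Sertoli cells, while the large Sertoli clusters lie under 1%.

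In the Sertoli comparison Cox6b2 stood at 7.1 and 20.5 CPM (log2 ratio 1.53, 1.31 to 1.76), both below its level in free RNA, 31.1 and 36.3 CPM. In cluster 14 it stood at 7.63 and 19.5 CPM (1.34, 0.85 to 1.87). Atp5k stood at 66.0 and 103 CPM (0.64), Ndufa3 at 49.0 and 69.8 CPM (0.51), Ndufa13 at 149 and 210 CPM (0.49), Atp5md, a small membrane subunit of the ATP synthase, at 87.5 and 123 CPM (0.49) and Atp5g2, a c-ring subunit, at 122 and 159 CPM (0.39). Ndufb3, Ndufs6, Cox6b1 and Ndufb7 lay between 0.32 and 0.36. Lower were Ndufs1, the largest core subunit of complex I (54.1 and 41.6 CPM, -0.38), Cox5a (340 and 272 CPM, -0.32), Ndufa9 (-0.29), Atp5f1 (-0.27) and Ndufs4 (-0.27). Next to 0 on the lower side came Uqcrc2 (-0.22), Ndufa8 (-0.19), Ndufaf4 (-0.18), Ndufv2 (-0.18) and Ndufb6 (-0.17). The 2 members past 1.5-fold lower were the germ cell isoforms Cox7b2 (6.66 and 1.32 CPM) and Cox8c (1.06 and 0.255 CPM), both at trace levels beside the germ cell markers given above.

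Peritubular myoid cells, the contractile cells of the tubule wall, were the class in which the most members stood lower in the knockout. Of 85 members only 6 had a ratio above 0, 7.06% against 40.4% of all genes, and the median was -0.24 against -0.07 over all genes. None of them was over 1.5-fold higher and 4 were lower, where 5.96% and 6.73% of all genes were. The share was 1.21% and 1.03%, and both clusters of the class were lower (-0.23 and -0.24). The mt- genes had a median of -0.43 with 2 of 13 over 1.5-fold lower, the tricarboxylic acid cycle one of -0.22 and mitochondrial ribosomal proteins one of -0.21, while cytosolic ribosomal proteins had 0.12. All 29 supernumerary subunits of complex I measured there had a ratio below 0 (median -0.26), as did 16 of 17 complex V subunits (median -0.20). Ndufb7 stood at 88.8 and 59.0 CPM (-0.59), Ndufa4, a subunit of complex IV, at 435 and 293 CPM (-0.57), Ndufs6 at 91.8 and 65.1 CPM (-0.49), Uqcrc1, a core protein of complex III, at 62.7 and 45.2 CPM (-0.47) and Cox6b2 at 95.7 and 62.9 CPM (-0.60). Median depth was 4700 and 6619.5 UMIs, and its part was not tested.

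In the remaining somatic classes the medians lay within 0.1 of 0. In Leydig cells the median of 83 members was 0.03 against -0.01, with 0 past 1.5-fold in either direction beside 5.39% and 4.07% of all genes. With each library clustered alone the Leydig median was 0.28, with 6 higher and 2 lower, and the share of all genes was not computed there. In stromal cells the median of 86 members was -0.08 against -0.01, with 0 higher and 1 lower beside 5.81% and 3.22%. In endothelial cells it was 0.08 against 0.02 over 81 members, with 0 higher and 3 lower beside 8.63% and 5.68%. Macrophages had 0.01 against -0.03 over 80 members, with 0 higher and 1 lower beside 6.88% and 8.08%. The endothelial members furthest below 0 with at least 20 CPM were Ndufaf7, a methyltransferase of complex I assembly (23.0 and 13.2 CPM, -0.76, -1.86 to 0.15), and Ndufa4l2 (149 and 98.8 CPM, -0.59, -0.95 to -0.24).

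The share of members with 1 direction across classes was no larger than that of all genes. Of 78 members measured in all 8 classes, 1, Ndufaf2, was higher in the knockout in each and 0 were lower in each (1.28% and 0%, against 1.97% and 3.0% of 8022 genes). In at least 7 of the 8 classes 6.41% of members were higher and 6.41% lower, against 7.19% and 11.7% of all genes. Atp5k (median over classes 0.43) and Ndufa3 (0.37) were above 0 in every class but peritubular myoid cells, where they stood at -0.22 and -0.24. Cox5a (median -0.32) was below 0 in every class but undifferentiated spermatogonia, where it stood at 0.09. It was 384 and 300 CPM in Leydig cells (-0.35), 204 and 158 CPM in stromal cells (-0.37) and 698 and 582 CPM in macrophages (-0.26). In free RNA Cox5a stood at 791 and 392 CPM and Atp5k at 164 and 165 CPM, and the part of free RNA in these ratios was not tested. The classes of a library share a suspension and its free RNA, so agreement over classes is not agreement over replicates.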

How the data were processed

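Single cells of whole testis were measured with 10x 3′ chemistry, 1 library per genotype. The authors deposited unfiltered UMI counts for 32285 genes and 1707157 (control) and 1477364 (knockout) barcodes, which per the file headers came from Cell Ranger 7.1.0, on mm10 per the submitters' processing notes. Whether intronic reads were counted is not given in the sources used here.

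From these counts, barcodes with at least 1000 UMIs, at least 500 genes and at most 20% mt- UMIs were called cells, 11232 and 10864. Doublets were marked by Scrublet scores at the control library's threshold in both libraries (495 and 275 removed), since the knockout library's own threshold marked 0 cells. That choice was made after seeing the data. Cells of both libraries were clustered together (scanpy 1.11.5, leidenalg 0.10.2, 2000 variable genes without the members and mt- genes, 30 components, 15 neighbours, resolution 1) into 30 clusters. A cluster took the name of a class with at least 3 markers that were 1.5-fold higher than in the other cells and found in 20% of its cells.

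Raw UMIs were summed per library and class. A log2 ratio compares 2 CPM values with 0.5 added to each count, for genes with at least 30 UMIs in the classes compared. Levels and shares have exact 95% intervals (Poisson or Clopper-Pearson, scipy 1.17.1), and ratios exact conditional ones. The ratio intervals were run on simulated Poisson counts without spread between cells or animals, which checks their calculation only. A gene counts as higher or lower past 1.5-fold, with no test. Shares over all genes include genes with as few as 30 UMIs and were not matched to the members in level. PCR duplicates were collapsed by UMI, so intervals cover the counting of molecules and neither animals nor dissociation. The level of free RNA is that of barcodes holding 10 to 100 UMIs. Promoters came from RefSeq on GRCm38.p6.

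Members named per class were the 5 with the highest and the 5 with the lowest ratio (10 each in undifferentiated spermatogonia and Sertoli cells) among those at 20 CPM or more in the higher library. The 5 at either end between stages were added, as were the 3 per class furthest above the median of the other classes, the most abundant member of each complex, the tissue-restricted isoforms with their counterparts, and the ends of other lists. A result that this rule would name is not reported here. Cox7b, Cox5a, Ndufaf2, Ndufa3 and Atp5b in other comparisons were chosen after their values were seen. The members and all gene lists were chosen with earlier results of these data known. Alternatives covered the cell, doublet, mt- and gene filters, the fold, the clustering, free RNA, the denominator and centring.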

Additional observations from a re-analysis of the deposited data

Results flagged for a closer look

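The members' median log2 ratio, knockout over control, had opposite signs in some classes. It was 0.12 in undifferentiated spermatogonia, -0.24 in peritubular myoid cells and -0.080 in interstitial stromal cells. With 1 library per genotype the difference between classes was not tested.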

How the results depend on the processing

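No paired analysis was possible because each genotype has 1 library. Over 18 medians and shares and 213 alternative values, 175 stayed within counting error (a share's interval or, for a median, the typical counting error of a member's ratio) and 38 moved beyond it. Shares made up 72 of these values, of which 29 moved, and medians 141, of which 9 moved. For other shares, 249 of 655 alternative values moved. Medians changed sign in early meiotic cells (0.37 centred), in Leydig cells (-0.04 with no mt- limit) and in stromal cells (to near 0 with libraries clustered alone), and in no other case tried. With 10% of UMIs subtracted as free RNA the Sertoli median was 0.20, the Cox7b2 share 98.0% in early meiotic cells and 70.2% in undifferentiated spermatogonia of the knockout, and the undifferentiated shares were 7.91% and 6.04% from mt- genes and 1.09% and 1.23% from members. With at most 10% mt- UMIs per cell the Sertoli median was 0.19, the early meiotic Cox7b2 share 90.9%, and the undifferentiated shares 5.14% and 4.01% (mt-) and 1.26% and 1.30% (members). With no such limit these were 0.22, 91.0%, 9.04% and 7.21%, and 1.12% and 1.23%. With cells of at least 2000 UMIs and 1000 genes the undifferentiated shares were 7.71% and 6.06% (mt-) and 1.19% and 1.26% (members). With 500 UMIs and 250 genes the control had 7.96% and 1.14%. With mt- UMIs left out of the total the members had 1.27% and 1.35%. The early meiotic median was -0.20 with at least 100 UMIs per gene, -0.20 with doublets kept, -0.20 with each library clustered alone and 0.37 centred on the median gene. The early meiotic Cox7b2 share was 90.1% with doublets kept, 90.5% with libraries clustered alone and 90.8% with members and mt- genes kept in the clustering. With doublets kept the knockout's undifferentiated mt- share was 6.25%. With libraries clustered alone the medians were 0.28 in Leydig cells and 0.98 in differentiating spermatogonia, the control's undifferentiated mt- share was 7.90%, and the knockout had no undifferentiated class.

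Counts past the fold moved more, and no share of all genes is given beside the alternative counts. In differentiating over undifferentiated spermatogonia, members higher in the knockout were 30, 15 with 500 UMIs, 14 without clusters of few UMIs and 0 at 2-fold. In the control 36 became 11 at 2-fold and 3 lower became 1. In early meiotic cells 13 higher became 34 centred and 3 at 2-fold, and 28 lower became 13 centred. Between libraries, higher members ranged from 3 to 67 in differentiating spermatogonia (main 12; 67 with libraries clustered alone), 0 to 5 in undifferentiated spermatogonia, 3 to 7 in Sertoli cells and 0 to 6 in Leydig cells. Lower members ranged from 1 to 9 in differentiating spermatogonia, 0 to 2 in Sertoli cells, 1 to 6 in peritubular myoid cells and 0 to 3 in endothelial cells. The cause of these moves was not tested. Leaving out clusters of few UMIs was chosen after seeing the data. Depth limits the values of the small classes, among them the knockout's differentiating spermatogonia (110 cells), endothelial cells (87 and 63) and macrophages (121 and 130).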

Other observations

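Other gene groups of Sertoli cells also differed in level between the libraries. A list drawn up for the mitochondrial stress response held Atf4, Atf5, Ddit3, Hspd1, Hspe1, Lonp1, Clpp, Fgf21, Gdf15, Trib3, Chac1 and Asns. Its 10 measured genes all had a log2 ratio, knockout over control, above 0 (median 0.22), with Gdf15, a secreted stress signal, at 2.10. Whether these levels concern mitochondria was not tested. Over all genes 53.3% had a ratio above 0 in this comparison, with a median of 0.03. Glycolysis had a median of 0.19, with 13 of 15 genes above 0 and Tpi1, triosephosphate isomerase, at 1.00. The tricarboxylic acid cycle had -0.12 and complex II -0.15, with 4 of 4 subunits below 0. The mt- genes had 0.15, with 10 of 13 above 0, and the cytosolic ribosomal proteins 0.33, with 81 of 86 above 0. Different clusters held most Sertoli cells in each library, and the part of that in these values was not tested.

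Cytosolic ribosomal protein genes took 2.97% and 3.81% of UMIs in Sertoli cells but 13.6% and 13.7% in Leydig cells. Set per 100 ribosomal protein UMIs, the members stood at 26.7 and 22.3 in Sertoli cells, 14.4 and 14.3 in Leydig cells, and 10.1 and 7.94 in peritubular myoid cells. On that scale Sertoli cells stood above Leydig cells, the reverse of their order by share of all UMIs. The cells left out for over 20% mt- UMIs numbered 1231 and 1131 and held 0.895% and 0.731% of UMIs from the members. Ndufb1-ps, left out by its pseudogene symbol, stood at 133 and 128 CPM over all called cells.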
